A study of Mus musculus with 7 samples.

Results

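The 438 promoter regions described here lost chromatin rank in muscle stem cells (MuSCs) of TRF2KO mice. They were chosen by the ATAC-seq values themselves, out of 24477 promoter regions that could have met the rule, a share of 1.79%. ATAC-seq uses a transposase to cut open chromatin, and each peak in a library carries a fold, the fragment pileup at its summit over the background. The peaks of all 4 ATAC libraries on chromosomes 1 to 19 were merged into 120444 regions, of which 60354 held a peak in every library and 24477 also lay within 3 kb of an annotated transcript start. The highest fold of a region in a library was turned into a percentile, the percentage of all peaks of that library at or below it. A region is said here to have fallen when its lower Control percentile exceeded its higher TRF2KO percentile by 15 points or more, and to have risen in the opposite case. Because the same values selected the regions, the folds and percentiles below are descriptions and carry no test. By the same rule 37 promoters, 0.151%, rose.

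TRF2KO mice carry a TRF2-floxed allele with Pax7-CreERT2, so that tamoxifen deletes TRF2 in cells that express Pax7, the transcription factor that marks MuSCs. The 2 Control and 2 TRF2KO libraries came from MuSCs sorted from uninjured hind limb muscle, labelled 0 h, and differ in genotype only by their titles, since the genotype field reads wild type for all 4. The sort removed cells with CD45, CD31, CD11b or Sca1 and kept cells by surface proteins that include α7-integrin, the product of Itga7. In addition, 2 CUT&Tag libraries with a TRF2 antibody and 1 with IgG came from MuSCs of injured muscle, so they do not describe the same cell state. Their label gives wild-type MuSCs 3 days after notexin injury. The methods give an earlier time and control mice that carry Pax7-Cre and a tdTomato reporter. CUT&Tag cuts DNA where an antibody is bound. The ATAC lists held 84103 to 100522 peaks, and the median region that fell had 21 to 51 fragments at its summit, depending on the library. The 18 MuSC marker genes all had a promoter region in all 4 libraries, with a median lower Control percentile of 90.9, against 39.7 for the 10 of 12 endothelial and 46.9 for the 3 of 12 immune markers that had one. It was 88.7 for 4 of 10 fibro-adipogenic, 84.1 for 2 of 5 tendon, 80.7 for 6 of 7 mural, 75.8 for 2 of 5 glial and 75.03 for 9 of 12 muscle fibre markers, so several lists of other cell types came near the MuSC value among the markers that had a region.

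TRF2, encoded by Terf2, is a shelterin protein that binds telomeric repeats and protects chromosome ends, and it can also bind G-quadruplexes (G4), structures that G-rich DNA folds into. The promoters of broadly expressed genes are usually rich in CpG and bound by factors such as SP and KLF proteins and ETS proteins, and they are accessible in most cell types. Regulatory elements with tissue-specific activity are more often poor in CpG. In muscle cells many of these carry E-boxes, short sites for basic helix-loop-helix factors such as MyoD, Myf5 and myogenin. The letters CAGCTG, called the myogenic E-box below, are a form that MyoD and myogenin bind well. This word is its own reverse complement and reads the same on both strands.

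The sequences of regions that fell are shown because the myogenic E-box was the short word with the largest excess in them. Each is 150 bases around the Control replicate 1 summit, read from GRCm38 (mm10 coordinates) on the plus strand, with every myogenic E-box in capitals. The regions lie in introns or between genes. In order they are the windows near Lta (chr17:35208156-35208305), Col4a1 (chr8:11241595-11241744), Sept9 (chr11:117233989-117234138) and Nfix (chr8:84772758-84772907), 4 of the 12 largest falls. They are followed by Map2k2 (chr10:81119794-81119943), which with Gm33926 held the most E-boxes in 300 bases, Krt82 (chr15:101553298-101553447) and Arhgef1 (chr7:24919790-24919939).
Lta: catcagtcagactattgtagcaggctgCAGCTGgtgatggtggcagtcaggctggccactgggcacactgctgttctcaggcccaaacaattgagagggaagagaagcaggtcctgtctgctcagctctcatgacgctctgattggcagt
Col4a1: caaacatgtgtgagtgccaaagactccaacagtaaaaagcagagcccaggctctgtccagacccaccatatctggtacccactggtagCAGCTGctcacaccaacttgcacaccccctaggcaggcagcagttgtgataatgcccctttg
Sept9: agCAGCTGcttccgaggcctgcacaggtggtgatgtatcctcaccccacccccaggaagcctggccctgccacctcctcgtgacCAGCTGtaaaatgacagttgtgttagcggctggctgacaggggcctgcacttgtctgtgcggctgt
Nfix: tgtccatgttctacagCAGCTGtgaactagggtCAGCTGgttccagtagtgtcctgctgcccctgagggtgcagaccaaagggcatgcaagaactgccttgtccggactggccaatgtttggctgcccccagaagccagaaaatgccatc
Map2k2: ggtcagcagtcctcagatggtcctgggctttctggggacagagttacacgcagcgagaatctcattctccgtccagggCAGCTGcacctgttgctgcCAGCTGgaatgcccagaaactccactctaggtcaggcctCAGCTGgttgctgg
Krt82: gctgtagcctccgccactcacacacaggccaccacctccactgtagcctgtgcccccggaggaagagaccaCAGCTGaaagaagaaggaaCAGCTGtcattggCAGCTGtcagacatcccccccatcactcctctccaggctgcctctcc
Arhgef1: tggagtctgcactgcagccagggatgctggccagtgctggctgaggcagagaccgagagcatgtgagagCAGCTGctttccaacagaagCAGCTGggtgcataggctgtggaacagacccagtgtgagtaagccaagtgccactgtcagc

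For contrast, the window near Sox18 (chr2:181673641-181673790) fell without a myogenic E-box in the printed bases, and that near Ak1 (chr2:32628856-32629005) is from a region that rose.
Sox18: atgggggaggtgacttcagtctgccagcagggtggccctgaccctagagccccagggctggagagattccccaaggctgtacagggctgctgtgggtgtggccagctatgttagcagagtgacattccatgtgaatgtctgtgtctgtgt
Ak1: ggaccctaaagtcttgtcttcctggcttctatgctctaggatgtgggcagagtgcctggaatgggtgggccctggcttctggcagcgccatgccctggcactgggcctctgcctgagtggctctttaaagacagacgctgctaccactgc

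The target gene comes first. The region over the start of Terf2 (chr8:107095609-107097141) had folds of 54.3 and 48.4 in Control replicates 1 and 2 and of 21.5 and 18.6 in TRF2KO replicates 1 and 2. Its percentiles were 90.1 and 91.5 against 75.1 and 73.4, so both TRF2KO libraries lay below both Control libraries and the fall was 15.02 points, the smallest of the 438. Among the 6327 promoters with a lower Control percentile above 90, it was the only one that fell. At such ranks 15 points take a larger change in fold than at middling ranks. Whether the floxed segment holds this region is not given in the sources used here, so less DNA and less open chromatin cannot be told apart at Terf2. Its summit lay 9 bp upstream of a start, its GC content was 68.7% and it held a G4 pattern, that is, 4 runs of 3 or more G with loops of at most 7 bases on either strand. The pattern is shown with 6 bases on each side, in plus-strand letters in which the G runs appear as runs of C (chr8:107096388-107096416), with the pattern in capitals.
Terf2: cgctcgCCCTCCCCGCCCTCCCCgccctc

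Elsewhere the regions that the rule called were mostly of middling rank. The median percentiles of the 438 regions were 56.4 and 60.9 in the Control replicates and 33.8 and 32.5 in the TRF2KO replicates. Their median folds were 10.7 and 9.36 against 5.49 and 4.99, and the median ratio of mean TRF2KO fold to mean Control fold was 0.525, with a range from 0.211 to 0.711. Over all 24477 promoters the median ratio was 1.03. The median fall was 18.7 points. Of the 1882 promoters with a lower Control percentile of 40 to 50, 89 fell, and of the 2297 at 50 to 60, 126 fell, or 5.49%. The share was 4.06% at 60 to 70, 1.49% at 70 to 80 and 0.314% at 80 to 90. No promoter below 20 fell, where a fall of 15 points leaves little room. At high ranks 15 points take a larger change in fold, so these shares partly follow from the percentile scale. At Terf2 a fall of 15.02 points went with a fold ratio of 0.390, and near Svopl, lower in rank, with 0.541. In a bulk library, fewer cells with an open site and less opening in each cell cannot be told apart.

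**Figure D1:**
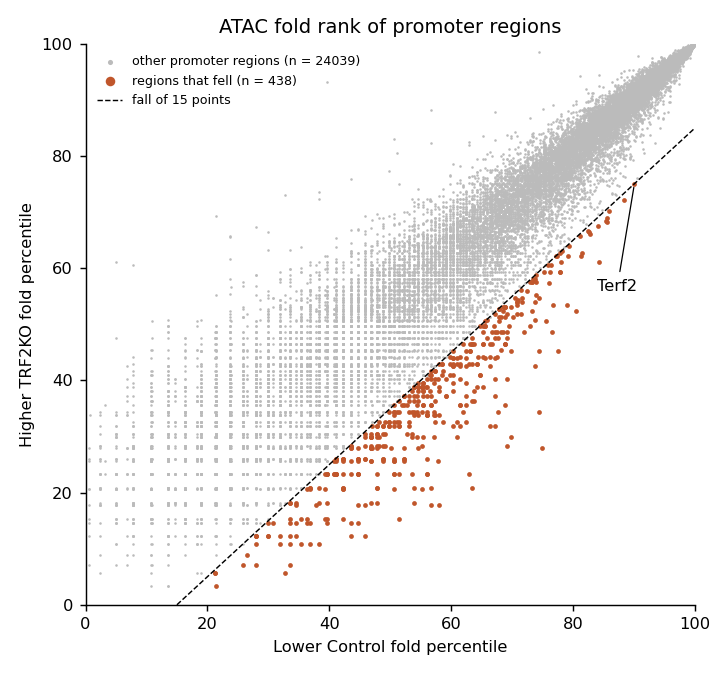
Each point is a promoter region, with its lower Control percentile on the x axis and its higher TRF2KO percentile on the y axis. The 438 regions that fell lie on or below the dashed line at 15 points, mostly in the middle of the range, with Terf2 alone among the regions above 90.

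The replicates set the scale for these differences. Over all promoters, the Control replicates differed by a median of 2.39 points and the TRF2KO replicates by 1.62, but 1334 promoters differed by 15 points or more between the Control replicates and 923 between the TRF2KO replicates. Among the regions that fell, 13 differed that much between the Control replicates and 23 between the TRF2KO replicates. Control replicate 2 stood apart in rank, with a median percentile of 79.1 over all promoters. The median was 76.2 in Control replicate 1 and 75.7 and 75.5 in TRF2KO replicates 1 and 2. The effect of this on the counts of falls and rises was not tested. For 114 of the 438 regions, 26.03%, the 95% Poisson intervals of the summit fragments over background did not overlap between any Control and any TRF2KO library. This describes counting error only and tests nothing, since the same values selected the regions. The same share was not computed over all promoters, so the count has no background beside it. With 2 against 2 libraries an exact permutation test could not go below p = 0.333.

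The count depended on the scale of the ranks. When percentiles were taken among the 24477 promoters instead of all peaks, 176 promoters fell and 54 rose, in place of 438 and 37, so that the share of falls among both went from 92.2% to 76.5%. Of the 438 regions, 136 also fell on that scale. The median promoter changed by -0.86 points on the first scale and by 0.26 points on the second. The count was 1328 without Control replicate 1 and 550 without Control replicate 2. It was 1087 without TRF2KO replicate 1 and 1086 without TRF2KO replicate 2. In each case fewer libraries had to be separated, and the differences among these counts were not explained by a test. Another setting changed the caller, the ranking measure and the regions tested together. Among SEACR regions ranked by maximum signal 18 promoters fell, and of the 438 regions 263 could be compared there and 8 of them also fell. GoPeaks, which reports positions only, had a region at 435 and 433 of the 438 in the Control replicates, 99.3% and 98.9%, and at 347 and 303 in the TRF2KO replicates, 79.2% and 69.2%. Over all promoters these shares were 96.9%, 97.3%, 96.04% and 94.8%. GoPeaks read the same ATAC libraries whose values selected the regions. Its lower shares in TRF2KO therefore follow in part from the choice and are no separate support.

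Among the 12 largest falls were single regions near genes of different kinds. At Col4a1, a basement membrane collagen, an intronic region had folds of 10.8 and 10.1 against 3.43 and 3.63. Near Nfix, a transcription factor of the fetal myogenic programme, the folds were 9.90 and 8.28 against 3.89 and 3.63. At Sept9, a septin that assembles into cytoskeletal filaments, they were 9.21 and 9.36 against 3.66 and 2.95. In each of these the Control libraries lay above 2 times either TRF2KO library. Near Lta, a cytokine of the tumour necrosis factor family, the intergenic region had folds of 13.3 and 10.8 against 4.35 and 4.09, and at Bricd5 they were 21.4 and 18.2 against 5.26 and 5.22. Another 6 of the 12 largest falls were near Gm27601, Gm22985, Gm10602, Gm13181, AC166575.1 and 1700123M08Rik, RNA genes, a pseudogene or loci of unclear function, with falls from 35.2 to 42.6 points.

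**Figure D2:**
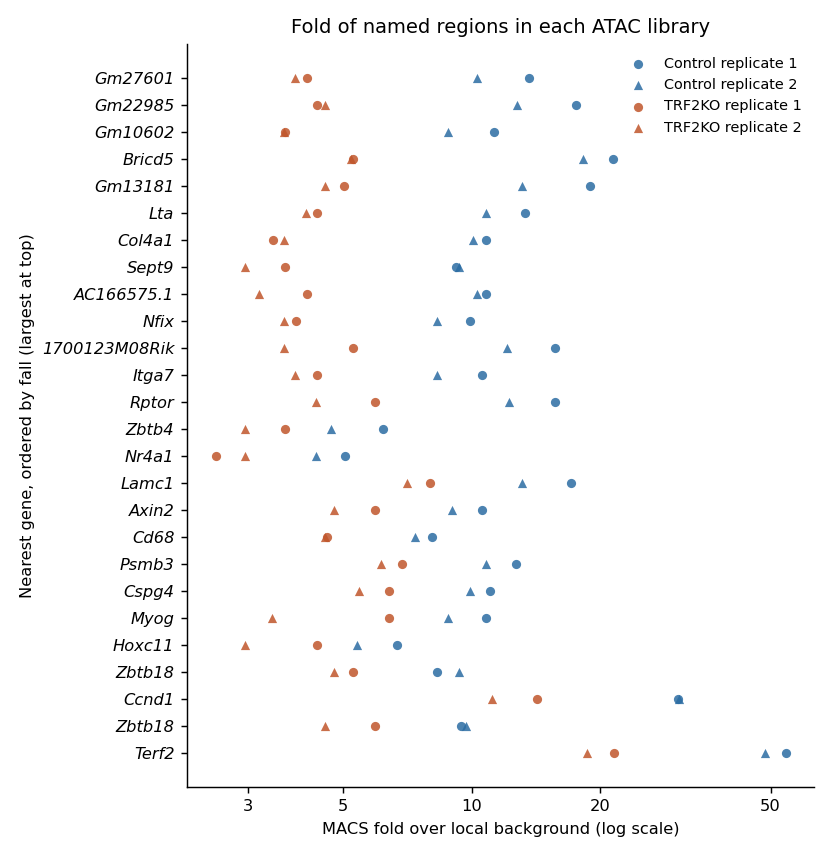
The fold at the summit in each of the 4 ATAC libraries is plotted on a log axis for 11 of the 12 largest falls, Terf2 and the members of the gene lists, ordered by the fall in percentile points. In every row both TRF2KO points lie to the left of both Control points, as the selection requires, and the Terf2 row has the highest folds, from 18.6 to 54.3.

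Beside Terf2, 5 regions stood highest by the lower of their Control folds among those that fell. Near Arhgef1, a guanine nucleotide exchange factor, the folds were 48.1 and 39.4 against 17.4 and 17.5. Near Man2a2, a Golgi mannosidase, they were 40.5 and 38.0 against 17.2 and 12.9. Upstream of Sox18, a transcription factor of endothelial cells, they were 36.6 and 37.3 against 10.3 and 11.1. Sox18 also had a region in its coding sequence that fell, with folds of 9.21 and 10.8 against 4.35 and 3.86. The last of these 5 were Rgs14, a regulator of G-protein signalling with folds of 39.4 and 33.8 against 15.8 and 10.9, and Gm37212. Of the 13 regions of the endothelial marker list, 0 fell and 0 rose, near the shares over all promoters, and their median change was 1.101 points.

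The regions that fell were mostly not the core promoters of their genes. The summit lay a median of 1581 bp from the nearest start, against 209 bp over all promoter regions. Only 85 of the 438, 19.4%, contained an annotated start, against 64.0% of all 24477. By annotation 257 summits, 58.7%, lay in introns, against 36.9% of all, and 8.22% in untranslated exons, against 18.5%. Upstream of the nearest start lay 208 summits, 47.5%, against 57.5% of all. The median width of the merged region was 815.5 bp against 1306 bp. At a lower Control percentile of 50 to 60 the median distance was 1504.5 bp, against 966 bp in the others. The median width there was 787 bp against 871 bp. The nearest start belonged to a protein-coding gene for 285 regions, 65.1% against 77.1% of all. It belonged to a lincRNA gene for 44, 10.0% against 6.72%.

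**Figure D3:**
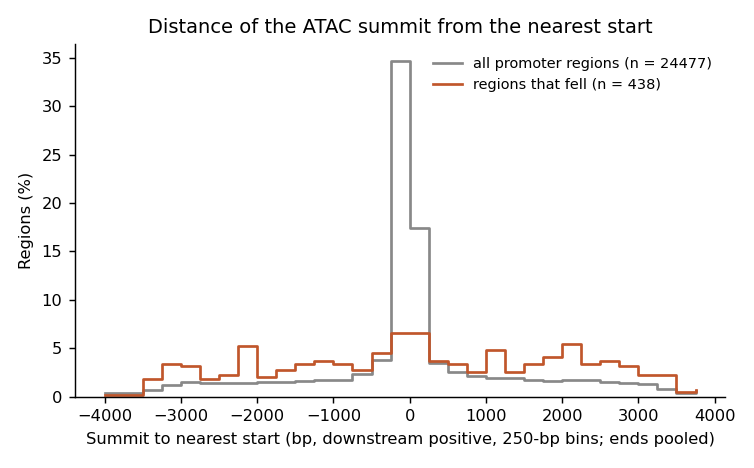
The percentage of regions in each 250-bp bin is drawn against the distance from the ATAC summit to the nearest transcript start, with downstream positions positive and the ends pooled. All promoter regions peak sharply at the start, while the regions that fell spread over the whole 3-kb range on both sides, with a median distance of 1581 bp.

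The start of the same gene kept its rank in most cases that could be examined. Of the 353 regions without a start inside them, 209 belonged to a gene with another tested region on one of its starts. Those start regions had a median lower Control percentile of 89.9 and changed by a median of -0.33 points, and 189 of them, 90.4%, changed by less than 5 points. A single one fell, the Sox18 region in its coding sequence, and 0 rose. Regions of high rank have little room to move, as the counts by rank above show, and 1.79% of all promoters fell.

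The myogenic E-box was present in the 300 bases around the summit in 269 of the 438 regions that fell, 61.4% with an exact Clopper-Pearson 95% interval of 56.7% to 66.0%. Over all 24477 promoter regions the share was 28.2%, and among the 37 that rose it was 32.4%. Of the 2080 hexamers counted on both strands, this one had the largest excess of its share in the regions that fell over its share in all regions, 33.2 percentage points. The next were words that overlap it, such as ACAGCT at 48.2% against 25.7%, and CTGCCA at 51.4% against 31.0%. At least 2 copies occurred in 104 regions, 23.7% against 5.92%. The share of promoters that fell was larger with more copies, from 0.962% of 17564 promoters without the word to 3.02% of 5463 with 1 copy, 6.73% of 1173 with 2 and 9.03% of 277 with 3 or more. The share that rose by the rule was 0.142% without the word, 0.201% with 1 copy, 0.0853% with 2 and 0% with 3 or more. The intervals here and below treat regions as separate draws, though all come from the same libraries. They make no allowance for motifs having been chosen with results known.

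Regions poor in CpG and away from starts hold the word more often, so it was counted among like regions too. In promoters with a lower Control percentile of 30 to 80, an observed-to-expected CpG ratio under 0.4 and a summit over 500 bp from a start, the share was 64.7% of the 300 that fell, with an interval of 59.0% to 70.1%, and 35.0% of the other 4747. The same hexamer again ranked first of 2080 there. Within 500 bp of a start, at low CpG, it was 63.0% of 73 against 40.03% of 1574. At higher CpG and over 500 bp from a start it was 34.8% of 23 against 28.6%, and there the interval of 16.4% to 57.3% held the value of the others. At higher CpG within 500 bp it was 50% of 14 against 20.95%, with an interval of 23.04% to 76.96%. In the first of these classes 3.32% of promoters without the word fell, 7.92% with 1 copy, 17.3% with 2 and 25.3% with 3 or more.

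**Figure D4:**
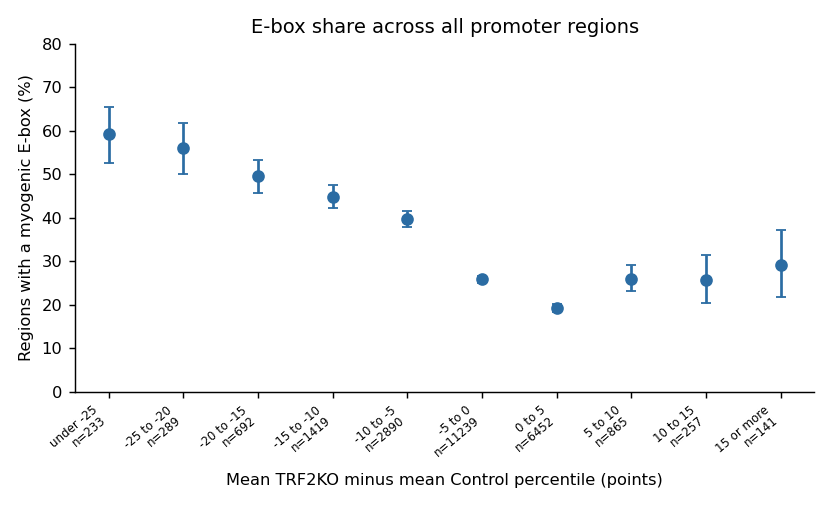
All 24477 promoter regions are grouped by the mean TRF2KO percentile minus the mean Control percentile, and the percentage with a myogenic E-box in 300 bases is shown with its 95% Clopper-Pearson interval. The share is 59.2% where the mean fell by more than 25 points, 19.3% where it changed by 0 to 5 points, and 29.1% where it rose by 15 points or more.

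The word lay near the summits. In the regions that fell, 108 of the 407 E-boxes had their centre within 25 bp of the summit and 22 lay 125 to 150 bp away, where the window cuts off some. Per 100 regions there were 24.7 E-boxes in the innermost bin, against 7.39 in the other promoter regions. The most common setting was ACAGCTGC, with 75 of 404 copies counted with both flanks, followed by CCAGCTGC with 63 and ACAGCTGG with 62. In the other promoter regions these took 15.9%, 19.1% and 13.2% of copies, against 18.6%, 15.6% and 15.3% in those that fell. The windows from Lta to Arhgef1 printed above hold between 1 and 3 copies each. They were printed to show the word, so their copies are no evidence of how common it is. In the wider window used for counting, 269 of the regions that fell held the word and 169 did not.

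**Figure D5:**
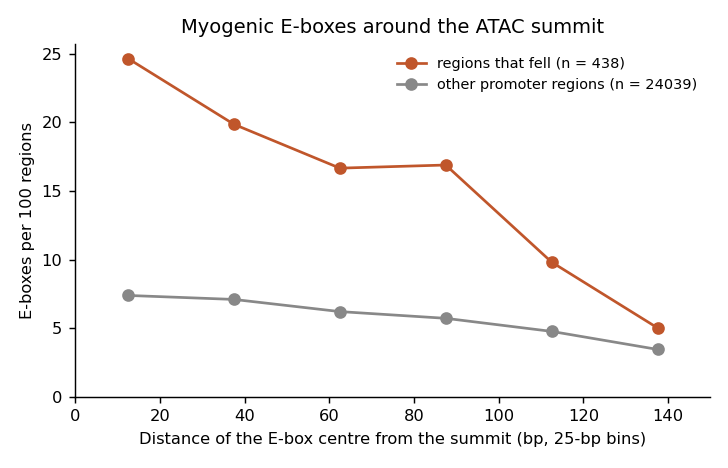
The number of myogenic E-boxes per 100 regions is plotted against the distance of their centre from the ATAC summit in 25-bp bins, for the 438 regions that fell and the other 24039. The regions that fell go from 24.7 in the innermost bin to 5.02 in the outermost, and the others from 7.39 to 3.45.

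Other E-box words were less different. CAGATG was present in 31.7% against 18.4% of all promoter regions, CACATG in 23.1% against 12.8% and CACCTG in 27.2% against 19.1%. The word CACGTG, preferred by Myc and USF proteins, was present in 5.25% against 7.88%, with an interval of 3.36% to 7.78% for the regions that fell. Among motifs of other factors, TEAD sites (GGAATG) were present in 22.1% against 14.5%. AP-1 sites (TGANTCA) were present in 11.6% against 11.1% and telomeric units (TTAGGG) in 11.6% against 10.4%. Words of CpG-rich promoters were scarce: SP and KLF sites (GGGCGG) in 10.3% against 43.1%, and ETS sites (CCGGAAG) in 0.913% against 10.0%. Both strands were searched, and a match is a description of the letters, not of a bound site.

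The regions that fell were poor in CpG. The median GC content of the 300 bases was 53.3% against 58.0% over all promoter regions, and the CpG ratio 0.210 against 0.514. At like Control rank the GC contents were closer. At a lower Control percentile of 40 to 50 the median was 53.3% in the regions that fell against 53% in the others. It was 53% in both at 50 to 60, and 52.8% against 54.7% at 60 to 70. The CpG ratio was not compared at like rank. A CpG ratio under 0.4 was found in 398 regions that fell, 90.9%, against 41.9% of all. The G4 pattern was present in 33, or 7.53% with an interval of 5.24% to 10.4%, against 19.6% of all. At like GC content the share was lower in 3 of 4 classes. It was 2.54% of 118 that fell against 3.21% of the others under 50% GC, and 10.3% of 136 against 7.74% at 50% to 55%, both with overlapping intervals. It was 7.09% of 127 against 13.8% at 55% to 60%, with intervals of 3.29% to 13.03% and 12.8% to 14.9%, which also overlap. Only at 60% or more, with 12.3% of 57 against 34.4%, were the intervals apart, at 5.08% to 23.7% and 33.5% to 35.3%.

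TRF2 peaks were rare at these regions. A peak in both CUT&Tag libraries overlapped 5 of the 438, 1.14% with an interval of 0.372% to 2.64%, against 21.1% of all promoter regions. No IgG peak overlapped a region that fell, which allows a share of up to 0.839% by the same interval, and IgG peaks overlapped 0.163% of all. TRF2 peaks are concentrated at the most open promoters: 58.8% of the other regions with a lower Control percentile above 90 had one, against 2.49% at 50 to 60, where 0.794% of the 126 regions that fell had one. At 70 to 80 it was 0 of 49 regions that fell, with an upper bound of 7.25%, against 9.21% of the others. At 40 to 50 it was 2.25% against 2.18%. The 5 regions were near Svopl, Ptgir, the prostacyclin receptor, Rin1, an effector of Ras, Med25, a Mediator subunit, and Pls1, an actin-bundling protein. At Terf2 the peak was present in replicate 1 only. Of the 209 start regions of the same genes, 71, or 34.0%, had a TRF2 peak in both libraries.

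The genes near the regions that fell were set against 29 lists. In 13 of the lists 1 to 3 regions fell, 16 of 1454 regions in all, and in the other 16 lists none did. This is 1.1%, against 1.79% of all promoters, and at that share most lists would hold about 1 such region or none, so the genes below are descriptions of single regions. Among the 28 promoter regions of MuSC markers 1 fell, that of Itga7, the laminin receptor used in the sort. This region (chr10:128931358-128931904) lay 2254 bp upstream of the start, with folds of 10.6 and 8.28 against 4.35 and 3.86, while the region on the start had 73.4 and 68.0 against 60.4 and 56.1. Among the 47 regions of myogenic factors, 1 fell and 1 rose. The one that fell lay 2290 bp inside Myog, which encodes the differentiation factor myogenin, with folds of 10.8 and 8.82 against 6.404 and 3.405, and its start region had 26.7 and 20.9 against 18.8 and 13.8, a change of -9.44 points. The one that rose was near Foxo3, with folds of 3.91 and 3.06 against 5.49 and 5.67.

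In the matrix and adhesion list 2 of 52 regions fell, Col4a1 and Lamc1, a laminin chain of the MuSC niche, with folds of 17.0 and 13.1 against 8.005 and 7.04 at the latter. The median change of that list was -3.09 points, against -0.86 over all promoters. In the niche signalling list 2 of 57 fell. These were Axin2, a Wnt target that restrains the pathway, at 10.6 and 8.998 against 5.95 and 4.77, and Rptor, a subunit of the mTOR complex, at 15.6 and 12.2 against 5.95 and 4.31. In the cell cycle list 1 of 45 fell, Ccnd1, a cyclin of the entry into the cycle. Its intronic region, 3714 bp wide in Control replicate 1, had folds of 30.4 and 30.6 against 14.2 and 11.1, while the region on the start had 52.7 and 45.5 against 54.7 and 49.3.

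Single regions fell in other lists. Nr4a1, an immediate early nuclear receptor, was the 1 of 33 in its list, with low folds of 5.06 and 4.32 against 2.52 and 2.95. Zbtb18, a transcriptional repressor, had 2 regions that fell, and Zbtb4, which binds methylated DNA, had 1, so 3 of 437 zinc finger regions did. Hoxc11, Psmb3, a proteasome subunit, Cspg4, the NG2 proteoglycan of mural cells, and Cd68, a macrophage protein, were the others. Cd68 stood among 3 immune marker regions only. It had folds of 8.05 and 7.38 against 4.57 and 4.54, and the part of immune cells in this value was not tested. In the telomere list Terf2 was the 1 of 21. Regions of Notch pathway genes (46), chromatin regulators (50), DNA damage and p53 genes (34), cytosolic ribosomal proteins (76), respiratory chain genes (80), splicing factors (50) and replication-dependent histones (43) included 0 that fell and 0 that rose, which at shares of 1.79% and 0.151% says little about lists of this size. The regions of muscle fibre markers, 11 in number, included 0 that fell, with a median change of -4.48 points.

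The 438 regions belonged to 427 genes, of which 11 had 2 regions each, including Map2k2, a kinase of the ERK pathway, Nav1, Synpo2l and Sox18. At Map2k2 the region with 5 E-boxes had folds of 15.2 and 12.6 against 5.26 and 4.09. By chromosome the share that fell lay between 1.18% and 2.80%, apart from 1 chromosome with 3 of 652 regions. Over all promoters the share was 1.79%, and on chromosome 15 it was 2.80%. The densest stretch of 1 Mb was picked by its own count, which is therefore a selected extreme, and clustering was not tested. It was on chromosome 15, between summits at 101256508 and 102192464, where 7 of 31 promoter regions fell. They were near Nr4a1, Gm49501, the keratin genes Krt82, Krt4 and Krt79, Tns2, a focal adhesion protein, and Csad, an enzyme of taurine synthesis. At Krt4 the folds were 42.3 and 30.8 against 15.6 and 15.2, and at Tns2 9.90 and 9.54 against 4.12 and 2.72. Around Terf2, 0 of 28 promoter regions within 1 Mb fell, its own left out, against 1.79% of all promoters. So few regions say little about whether the change was local. Within 5 Mb it was 2 of 174 and within 20 Mb 9 of 533.

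The threshold cut through a continuum. Just inside it were Gm7580, Gm37260, Svopl and Terf2, and just outside were Gm12979, Rab44, Anapc1 and Plch2. At Svopl the folds were 14.7 and 14.8 against 8.46 and 7.49, and at Rab44, which did not count as fallen, they were 15.2 and 11.9 against 8.69 and 7.26. In both, the Control libraries lay above the TRF2KO libraries. Of the promoters that rose, Sergef, Fndc10, 4921516A02Rik and Ak1 rose most. Near Fndc10 the folds were 6.67 and 8.998 in Control and 73.2 and 62.0 in TRF2KO, and near Ak1, the muscle adenylate kinase, 8.98 and 7.38 against 33.6 and 27.7.

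Regions farther than 3 kb from any start were called as fallen more often than promoters, at ranks that were not matched. Of 35877 such regions, 1464 fell, 4.08%, and 136 rose, 0.379%, against 1.79% and 0.151% of promoters. Among promoters the share that fell was 4.73% at a lower Control percentile of 40 to 50 and 5.49% at 50 to 60. It was 0.0158% of the 6327 above 90, so a link of distance with falling was not tested at like rank. The myogenic E-box was present in 55.5% of those that fell, in 39.7% of all distal regions and in 22.8% of those that rose, with intervals of 52.9% to 58.1% for the first and 16.0% to 30.8% for the last. A TRF2 peak in both libraries overlapped 0.820% of the distal regions that fell and 3.94% of all distal regions. Distal regions were ranked on the same lists as promoters, so the ranks of both kinds are not independent.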

How the data were processed

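ATAC-seq and CUT&Tag libraries (4 and 3) were grouped by title, with the series text giving 2 biological replicates per ATAC group. The authors trimmed reads with Cutadapt, aligned them to mm10 with Bowtie2, removed duplicates with Picard and called peaks per library with MACS3, SEACR (stringent) and GoPeaks. No thresholds or transposase shift are given in the sources used here. The deposited MACS lists give a fold over background, a -log10 p and a -log10 q for each peak, and the deposited SEACR lists a maximum signal. Raw depth is unknown, and summit fragments were solved from the deposited fold and p (100% of ATAC peaks). The median background solved with them was 4.56 in Control replicate 2 and 3.35 in Control replicate 1. It was 3.37 and 3.41 in TRF2KO replicates 1 and 2. Peaks overlapping by 1 bp or more were merged and ranked with pandas 2.3.3 and numpy 2.4.6. Starts came from GENCODE M21 and sequence from GRCm38. A region's gene is that of the nearest start. Members, gene lists and motifs were chosen with earlier results of these data known. Named were Terf2, the 12 largest falls, the 6 highest Control folds, the 4 regions on each side of the threshold, the 4 largest rises, list genes and the densest 1 Mb, and, after their values were seen, regions with a TRF2 peak in both libraries or the most E-boxes. Of the 12 largest falls, 1 is not reported here. The selection rule was tested on simulated data. Alternatives covered the ranking measure, thresholds, windows, caller and left-out libraries. The deposited consensus lists were not used.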

Additional observations from a re-analysis of the deposited data

How the results depend on the processing

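Of 438 regions, the count moved to 1056 at a fall of 10 points, 165 at 20 points, 1214 by genotype means, 210 within 1 kb of a start, 176 with percentiles among the promoters, and 18 with SEACR. Leaving out 1 library gave 550 to 1328, with fewer libraries to be separated in each case. The count was 1328 without Control replicate 1, 550 without Control replicate 2, 1087 without TRF2KO replicate 1 and 1086 without TRF2KO replicate 2. Ranking by -log10 p or by summit fragments gave the same 438 regions, because the background is nearly constant within a library. The share with a myogenic E-box was 67.6% with percentiles among the promoters, 66.1% at 20 points, 52.97% by genotype means, 72.2% with SEACR, 55.5% in 200 bases and 49.9% to 59.3% without 1 library. The E-box alternatives and the summits of other libraries were chosen after seeing the data. The share with a G4 pattern was 10.8% with percentiles among the promoters, 16.7% with SEACR, 13.9% with loops of up to 12 bases, 3.88% in 200 bases and 7.64% to 8.47% without 1 library. Median GC content was 55% with percentiles among the promoters, 54.5% within 1 kb, 54.7% at protein-coding starts, 57.5% with SEACR and 52.7% to 53.7% without 1 library. The share with TRF2 peaks was 11.1% with SEACR, 2.74% in TRF2 replicate 2 alone, 0% at a TRF2 -log10 q of 5 or more, and 1.09% to 1.36% without 1 ATAC library. Apart from what is said above, the cause of these moves was not tested. No paired analysis was possible because the results come from no test and nothing in the sources ties equal replicate numbers to a shared litter or day. Summits of 21 to 51 fragments at the median limit the precision of each region's rank.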
